A study of Mus musculus with 6 samples.

Results

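Complex I of the mitochondrial respiratory chain is encoded in the nucleus largely by genes whose symbols start with Nduf, and 44 such genes were measured here in fat from NOD mice, which become diabetic through autoimmunity. They were chosen by symbol alone, from 18193 genes that had a probe set annotated with 1 gene symbol, and each gene was read from its brightest probe set, by mean signal over the 6 arrays. All 44 passed the filter on mean signal, as did 13043 genes in all. Each group had 2 arrays. The normoglycemic group held female mice of 10 weeks, the diabetic group mice with glucose above 300 mg/dl on each of 3 days in a row, and the AAT-treated group mice given alpha-1-antitrypsin (AAT), a serum inhibitor of proteases, whose diabetes had stably reverted so that they no longer depended on insulin. All mice were NOD. Age and sex are labelled for normoglycemic mice only, and the labels do not state the dose of AAT. They also leave unsaid whether paired arrays represent different animals, so the p-values reflect nothing but the spread among these samples, and that spread may be technical.

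Complex I takes electrons from NADH, passes them through a flavin and a chain of iron-sulfur clusters to ubiquinone, and pumps protons across the inner mitochondrial membrane. Its peripheral arm holds an N module, where NADH is oxidised, and a Q module, where quinone is reduced, and its membrane arm holds the proton pumps, whose core subunits are encoded by mitochondrial DNA. The remaining Nduf proteins are supernumerary subunits, or assembly factors (Ndufaf) that leave the finished enzyme. Ndufa4 and Ndufa4l2 carry the name, although Ndufa4 is now counted as a subunit of cytochrome c oxidase. In fat cells the respiratory chain serves fuel oxidation and the supply of ATP for lipid synthesis.

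Nuclear respiratory genes are known for promoters with sites of NRF1 and of ETS factors such as GABPA, so the 250 bases before the start of transcription were read from the RefSeq promoter table (GRCm38.p6) for the 39 Nduf genes it holds. The windows of Ndufa5 (chr6:24527691-24527940, minus strand), Ndufs4 (chr13:114388095-114388344, minus strand), Ndufb7 (chr8:83566508-83566757, plus strand) and Ndufa8 (chr2:36049339-36049588, minus strand) are printed because these 4 genes had the smallest unadjusted p in diabetic against normoglycemic fat, and that of Ndufa9 (chr6:126849145-126849394, minus strand) because the gene is followed in every comparison. Each runs 5′ to 3′ on the strand of its gene, and capitals mark the motif letters found.
Ndufa5: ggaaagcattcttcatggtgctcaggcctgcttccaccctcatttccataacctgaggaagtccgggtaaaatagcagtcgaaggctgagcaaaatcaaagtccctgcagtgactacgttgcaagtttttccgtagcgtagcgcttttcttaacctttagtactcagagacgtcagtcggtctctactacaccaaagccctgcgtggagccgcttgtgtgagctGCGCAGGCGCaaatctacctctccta
Ndufs4: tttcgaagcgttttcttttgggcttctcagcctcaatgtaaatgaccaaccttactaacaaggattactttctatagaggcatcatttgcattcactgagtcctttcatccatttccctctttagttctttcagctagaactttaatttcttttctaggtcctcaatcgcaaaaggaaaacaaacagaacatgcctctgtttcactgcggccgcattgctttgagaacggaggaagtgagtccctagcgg
Ndufb7: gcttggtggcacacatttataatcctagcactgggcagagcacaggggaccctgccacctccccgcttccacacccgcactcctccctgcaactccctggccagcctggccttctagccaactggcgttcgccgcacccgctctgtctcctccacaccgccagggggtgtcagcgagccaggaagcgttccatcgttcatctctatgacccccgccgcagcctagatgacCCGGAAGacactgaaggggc
Ndufa8: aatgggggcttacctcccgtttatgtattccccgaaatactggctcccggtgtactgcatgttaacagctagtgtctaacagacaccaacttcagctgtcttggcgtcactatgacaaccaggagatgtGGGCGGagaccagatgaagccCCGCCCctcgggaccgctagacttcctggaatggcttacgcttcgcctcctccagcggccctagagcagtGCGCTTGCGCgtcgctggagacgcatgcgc
Ndufa9: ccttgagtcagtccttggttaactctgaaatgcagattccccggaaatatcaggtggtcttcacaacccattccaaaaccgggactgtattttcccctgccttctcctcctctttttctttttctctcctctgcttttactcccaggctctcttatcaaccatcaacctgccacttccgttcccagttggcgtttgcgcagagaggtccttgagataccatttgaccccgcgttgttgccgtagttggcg
The NRF1 motif, searched like the others as fixed letters on both strands, stood in the windows of 5 of the 39 genes (12.8%), against 4.23% of 27025 genes with a window. In the window of Ndufa5 the match began 26 bases before the start, and in that of Ndufa8 30 bases before it. The ETS letters CCGGAAG were found for 5 of 39 genes (12.8%, against 7.83% of all), among them Ndufb7, where they began 20 bases before the start. The SP1 letters GGGCGG were found for 19 of 39 (48.7%, against 35.4%), and those of YY1 (AAGATGGC, 1.83% of all) and of the estrogen-related receptors (TCAAGGTCA, 0.422% of all) for 0. The printed windows of Ndufs4 and Ndufa9 held none of these letters. Ndufa5 has another annotated start, whose window overlaps this one and holds the same NRF1 match, there 190 bases before the start. That window also holds the SP1 letters, 161 bases before the start. A match describes letters and shows no binding.

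Technical measures differed between the arrays. For beta-actin, a control transcript read at both ends, the 3′ over 5′ quotient grows as RNA breaks down. It was 3.63 and 4.3 for normoglycemic, 15.2 and 15.5 for diabetic, and 9.08 and 5.87 for AAT-treated arrays, so that it did not overlap between any of the groups. For the control Gapdh the quotient was 0.91 and 0.946, 2.46 and 4.63, and 2.31 and 0.79 in the same order. There the diabetic arrays were again the highest, but AAT-treated and normoglycemic arrays overlapped. A principal component analysis placed normoglycemic 1 and AAT-treated 2 away from the other arrays: on component 1, with 46.2% of the variance, they lay at −69.2 and −32.2 and the remaining 4 between 4.61 and 39.6. These 2 arrays also had the brightest hybridisation controls. Levels in this text are deposited signals, and differences are on the scale of log2(signal + 74), each with its SE by limma (n = 2 in every group). The 3 comparisons share arrays pairwise and are not independent of each other. An exact permutation test of 2 arrays against 2 cannot give a two-sided p below 0.333, so none was run.

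Between diabetic and normoglycemic fat the complex I genes were divided by direction much as all genes were. Of the 44 genes 21 were higher and 23 lower, with a median log2 difference of −0.02 against −0.06 over all genes tested. The accessory subunits Ndufa5 and Ndufb7 had the smallest p among the higher genes, and those of the lower ones belonged to Ndufs4, Ndufab1, Ndufa8 and the assembly factor Ndufaf1. By limma with Benjamini-Hochberg adjustment 0 of the 44 passed 0.05, as did 0% of all genes. At an unadjusted p under 0.05 there were 2 members higher and 4 lower, against 5.27% and 4.62% of all 13043 genes (1291 genes in both directions).

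Ndufa5, an accessory subunit of the Q module, had normoglycemic signals of 4338 and 4804, diabetic signals of 12321 and 12100, and AAT-treated signals of 7139 and 3050. Both diabetic arrays lay above all others, and the AAT-treated arrays lay on either side of the normoglycemic ones. Its difference was 1.4 ± 0.43 (adjusted p = 0.482 by limma). Ndufb7, an accessory subunit of the distal membrane arm, had normoglycemic signals of 5385 and 7454, diabetic signals of 18571 and 11554, and AAT-treated signals of 10430 and 4842. Here too both diabetic arrays were the highest, and the difference was 1.2 ± 0.46 (adjusted p = 0.491).

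On the other side, Ndufs4, a subunit of the N module whose loss is a known cause of Leigh-like disease in mice, had normoglycemic signals of 2082 and 1744, diabetic signals of 701 and 1068, and AAT-treated signals of 992 and 1673. The normoglycemic arrays lay above all others, and the difference between diabetic and normoglycemic fat was −1.07 ± 0.37 (adjusted p = 0.482). Ndufa8, a subunit of the proximal membrane arm, had normoglycemic signals of 3871 and 5823, diabetic signals of 2282 and 2826, and AAT-treated signals of 3870 and 3229. Its lower normoglycemic array and its higher AAT-treated array were all but equal, whereas both diabetic arrays lay below (−0.88 ± 0.34, adjusted p = 0.491). Ndufab1, the mitochondrial acyl carrier protein, which sits in complex I and also serves fatty acid synthesis in mitochondria, had normoglycemic signals of 6230 and 6750, diabetic signals of 2365 and 4333, and AAT-treated signals of 3955 and 5910 (−1.0 ± 0.39, adjusted p = 0.491).

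The assembly factor Ndufaf1 had normoglycemic signals of 1205 and 1140 and diabetic signals of 602 and 669, and the AAT-treated arrays, at 646 and 1143, took a value near each (−0.81 ± 0.35, adjusted p = 0.501). Ndufa9, which lies beside the quinone site, had normoglycemic signals of 6438 and 4748, diabetic signals of 2837 and 3706, and AAT-treated signals of 3355 and 3899. Its normoglycemic arrays were the highest, and its difference was −0.76 ± 0.33 (adjusted p = 0.507).

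**Figure D1:**
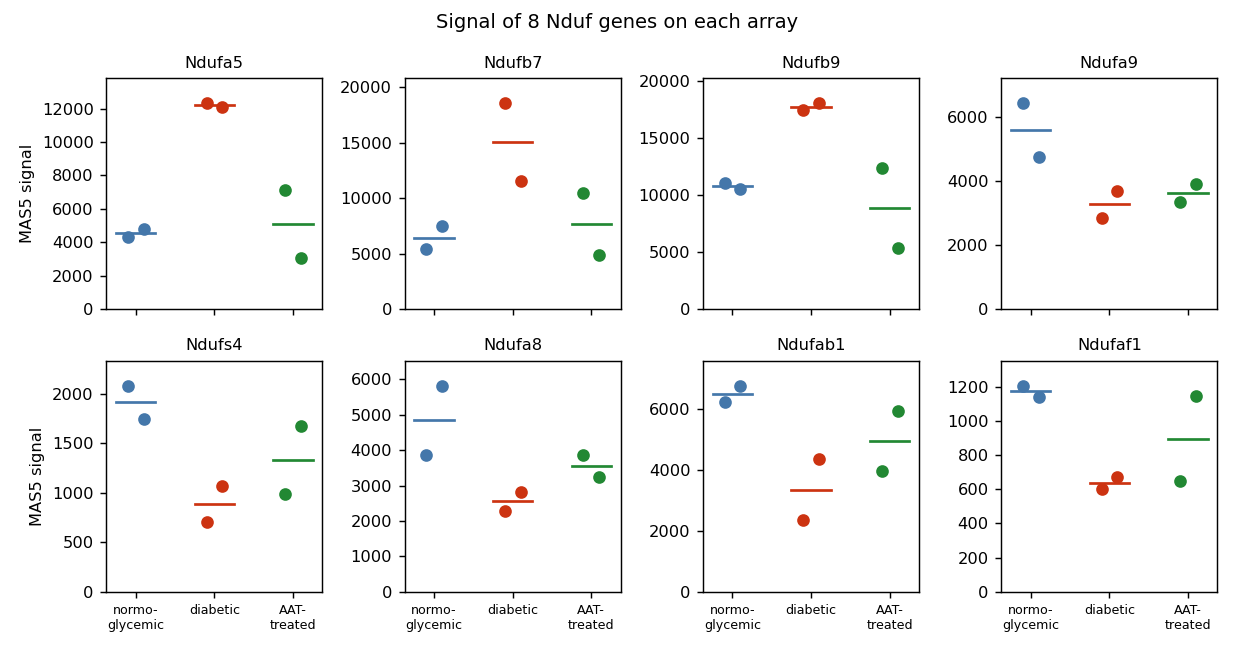
Deposited MAS5 signal (linear axis from 0) of 8 Nduf genes on each of the 6 arrays; points are arrays, bars the means of 2 arrays. Ndufa5, Ndufb7 and Ndufb9 were highest on the diabetic arrays, and Ndufa9, Ndufs4, Ndufab1 and Ndufaf1 had a higher mean in normoglycemic fat than in either other group, as did Ndufa8.

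Counted by arrays, the 2 groups did not overlap for 16 members that were higher in diabetic fat (36.4%, against 20.2% of all genes) and for 13 that were lower (29.5%, against 24.5%). The share of members lower, 52.3%, was close to the 53.6% of all genes. Among the 6 measured core subunits, which carry the flavin and iron-sulfur clusters or the quinone site, 4 were higher and 2 lower. The higher ones, Ndufv1, Ndufv2, Ndufs7 and Ndufs8, were read from _a_at or _x_at probe sets, kinds described below. On plain _at probe sets Ndufv1, Ndufv2 and Ndufs7 differed by −0.4, −0.66 and −0.36. The plain ones of Ndufs8 gave 0.02 and −1.2. The distal membrane arm had 7 of 11 higher (median 0.4), the N module 4 of 9 (median −0.01), the proximal membrane arm 4 of 8 (median −0.07), the Q module 3 of 5 (median 0.42) and the assembly factors 3 of 8 (median −0.27). On their brightest plain _at probe sets Ndufb2, Ndufb7 and Ndufb8 of the distal arm gave 0.48, 0.59 and 0.71. Those of Ndufb5, Ndufb6, Ndufb9 and Ndufb11 gave −1.04, −0.67, −0.07 and −0.2. The set as a whole had no common direction in this comparison.

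Complex I genes were more often lower than higher in AAT-treated than in diabetic fat on their brightest probe sets, but not on plain probe sets or with the beta-actin ratio as a covariate. Of the 44 genes 28 were lower (63.6%, against 48.8% of all genes), with a median of −0.36 against 0.01 over all genes. On plain _at probe sets alone 16 of 34 were lower (median 0.02), and with the beta-actin covariate 20 of 44 (against 54.9% of all genes, median 0.05). The beta-actin ratio did not overlap between the groups, so the fit with that covariate cannot separate the ratio from the group. The groups did not overlap for 20 members that were lower (45.5%, against 15.9% of all genes) and for 4 that were higher (9.09%, against 17.9%). By limma 0 members passed the adjusted threshold (0% of all genes), and at an unadjusted p under 0.05 there were 2 lower and 0 higher, against 1.83% and 2.94% of all genes (622 genes in both directions).

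Ndufa5 led this comparison too, at −1.37 ± 0.43 (adjusted p = 0.962 by limma), with the same diabetic arrays as above. The difference was −0.77 without AAT-treated 2, −1.98 without AAT-treated 1 and −0.52 on its plain probe set. Ndufb9, an accessory subunit of the distal membrane arm, had normoglycemic signals of 11073 and 10544, diabetic signals of 17446 and 18066, and AAT-treated signals of 12378 and 5330. Both diabetic arrays were the highest, and AAT-treated 2 was the lowest of the 6, well under its replicate (−1.12 ± 0.44, adjusted p = 0.962). Without AAT-treated 2 the difference was −0.52, without AAT-treated 1 −1.72, and on the plain probe set −0.23. Ndufs8, a core subunit with iron-sulfur clusters, had diabetic signals of 6378 and 5203 and AAT-treated signals of 4184 and 2619, against normoglycemic signals of 4289 and 4271 (−0.78 ± 0.35, adjusted p = 0.962). The normoglycemic values lay between those of the other groups. Without AAT-treated 2 the difference was −0.45, without AAT-treated 1 −1.12, and averaged over all 6 kept probe sets −0.18. The plain probe sets of Ndufs8 gave −0.07 and 0.59.

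Ndufb7 differed by −1.03 ± 0.46, Ndufv3, an accessory subunit of the N module, by −0.75 ± 0.34, and Ndufb6, of the distal membrane arm, by −0.79 ± 0.36, each with an adjusted p of 0.962. On their plain probe sets Ndufb7 gave −0.54, and Ndufb6 0.1, the other direction. For Ndufv3 diabetic signals of 9058 and 9945 stood against AAT-treated signals of 6762 and 4634, and for Ndufb6 14106 and 11127 against 8439 and 6126. Ndufa9 was at 0.15 ± 0.33 in this comparison. In the distal membrane arm 10 of 11 genes were lower (median −0.6), and among the core subunits 4 of 6. Those 4, Ndufv1, Ndufv2, Ndufs7 and Ndufs8, were read from _a_at or _x_at probe sets. On plain _at probe sets Ndufv1, Ndufv2 and Ndufs7 gave 0.15, 0.29 and 0.04. In the distal arm the brightest plain ones of Ndufb5 and Ndufb11 gave 0.49 and 0.1. Those of Ndufb2, Ndufb8 and Ndufb9 gave −0.18, −0.13 and −0.23. The assembly factors were evenly divided, with 4 of 8 lower and a median of 0.03.

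**Figure D2:**
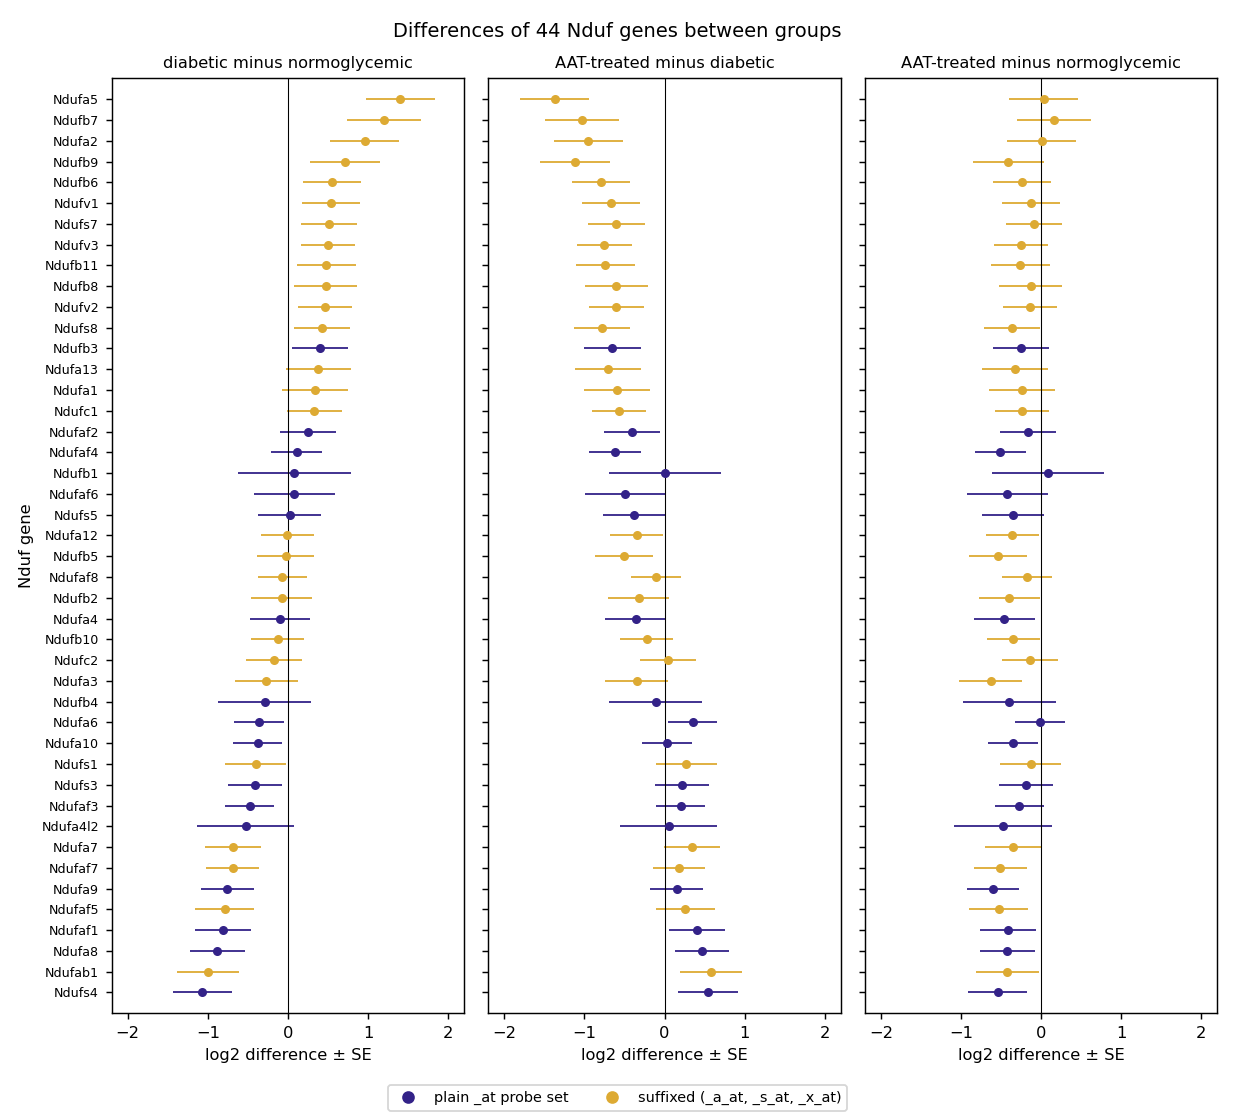
Log2 difference ± SE (limma, 2 arrays per group) of all 44 Nduf genes in the 3 comparisons, in the order of the diabetic minus normoglycemic difference; colours give the kind of probe set that stood for the gene. The first 2 panels spread to both sides of 0, from −1.07 to 1.4 and from −1.37 to 0.58, and in the third 40 of 44 points lie below 0, from −0.63 to 0.16.

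Against normoglycemic fat, AAT-treated fat had lower signals for nearly all complex I genes, by small amounts. Of the 44 genes 40 were lower (90.9%, against 52% of all genes), with a median of −0.34 against −0.03 over all genes and a range from −0.63 to 0.16. The groups did not overlap for 17 members that were lower (38.6%, against 16.1% of all genes) and for 0 that were higher (against 16% of all genes). By limma 0 members passed (0% of all genes), and at an unadjusted p under 0.05 there were 0 in either direction, where 3.41% of all genes were higher and 1.72% lower (669 genes in both directions). The mean log2 level of the 44 genes was 11.75 and 11.71 on the normoglycemic arrays, 11.62 and 11.84 on the diabetic arrays, and 11.54 and 11.34 on the AAT-treated arrays.

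Both AAT-treated arrays had the lowest mean level, although AAT-treated 2 lay further down than its replicate. Without AAT-treated 2, one of the arrays that stood apart, 33 of 44 genes were lower than in normoglycemic fat, and 39 without AAT-treated 1. Without normoglycemic 1, the other such array, 40 were lower. With the beta-actin ratio as a covariate 33 were lower (against 42.6% of all genes), with a median of −0.62. That ratio did not overlap between the groups, so the fit cannot tell ratio and group apart.

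The differences of single genes were within about 2 SE of 0. Ndufa9 differed by −0.6 ± 0.33 and Ndufaf4, an assembly factor, by −0.51 ± 0.32, both with an adjusted p of 0.923 by limma. Ndufaf4 had normoglycemic signals of 1221 and 932 and AAT-treated signals of 823 and 639, with diabetic arrays, at 1167 and 1142, inside the normoglycemic range. Ndufa3, of the proximal membrane arm, had normoglycemic signals of 7767 and 9642, diabetic signals of 6235 and 8181, and AAT-treated signals of 7529 and 4124. Its AAT-treated arrays lay below the normoglycemic ones, AAT-treated 2 by far the more (−0.63 ± 0.39, adjusted p = 0.923). The difference was −0.2 without AAT-treated 2, −1.06 without AAT-treated 1 and −1.85 with the beta-actin covariate.

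Ndufaf7 is a methyltransferase that modifies a core subunit during assembly. It had normoglycemic signals of 566 and 568, diabetic signals of 287 and 363, and AAT-treated signals of 383 and 368, so that both other groups lay below normoglycemic fat (AAT-treated minus normoglycemic −0.51 ± 0.33, adjusted p = 0.923). Ndufb5 differed by −0.54 ± 0.36 and Ndufs4 by −0.54 ± 0.37, with the same adjusted p, and Ndufa5 was at 0.03 ± 0.43. All 8 assembly factors and all 8 measured genes of the proximal membrane arm were lower, and so were 8 of 9 of the N module, 9 of 11 of the distal membrane arm and 4 of 5 of the Q module.

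The direction of many members depended on which probe set was read. Affymetrix marks probe sets whose probes all match several transcripts of a gene with _a_at, those shared between genes or transcripts with _s_at, and those with probes similar to other sequences with _x_at. Such suffixed probe sets stood for 27 of the 44 genes (18 _a_at, 5 _s_at and 4 _x_at), and plain _at probe sets for 17. In diabetic against normoglycemic fat the groups did not overlap, with diabetic fat higher, for 14 of the 27 on suffixed probe sets (26.5% of all genes read this way), and, with diabetic fat lower, for 9 of the 17 on plain ones (25.3% of all genes read this way). The medians were 0.34 and −0.36, and over all genes 0.06 and −0.09.

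In AAT-treated against diabetic fat the groups did not overlap, with AAT-treated fat lower, for 16 of the 27 on suffixed probe sets (19.1% of all such genes), and the medians were −0.59 on suffixed and 0.03 on plain probe sets. In AAT-treated against normoglycemic fat both kinds pointed the same way, with 24 of 27 and 16 of 17 genes lower and medians of −0.25 and −0.4. The groups did not overlap there for 10 of 27 (15.2% of all such genes) and for 7 of 17 (16.4%).

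The same split appeared within single genes. Both kinds of probe set were measured for 18 Nduf genes, and their differences had opposite signs for 10 of them in diabetic against normoglycemic fat, for 9 in AAT-treated against diabetic fat and for 3 in AAT-treated against normoglycemic fat. Ndufv2, a core subunit with an iron-sulfur cluster, is an example chosen after its values were seen. Its _a_at probe set gave normoglycemic signals of 7156 and 7138, diabetic signals of 11194 and 8691, and AAT-treated signals of 7515 and 5609, highest in diabetic fat. Its plain probe set read 5902 and 4812, 3407 and 3294, and 3647 and 4657 in the same order of groups, lowest in diabetic fat.

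Ndufa5 kept its direction between diabetic and normoglycemic fat on its plain probe set, at 0.28, where normoglycemic signals of 2533 and 1785 overlapped diabetic signals of 2493 and 2701. For Ndufs4 the plain probe set was the brighter and differed by −1.07, and its _x_at probe set differed by 0.32. Ndufb7 was higher in diabetic fat on both of its probe sets, by 1.2 and 0.59.

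**Figure D3:**
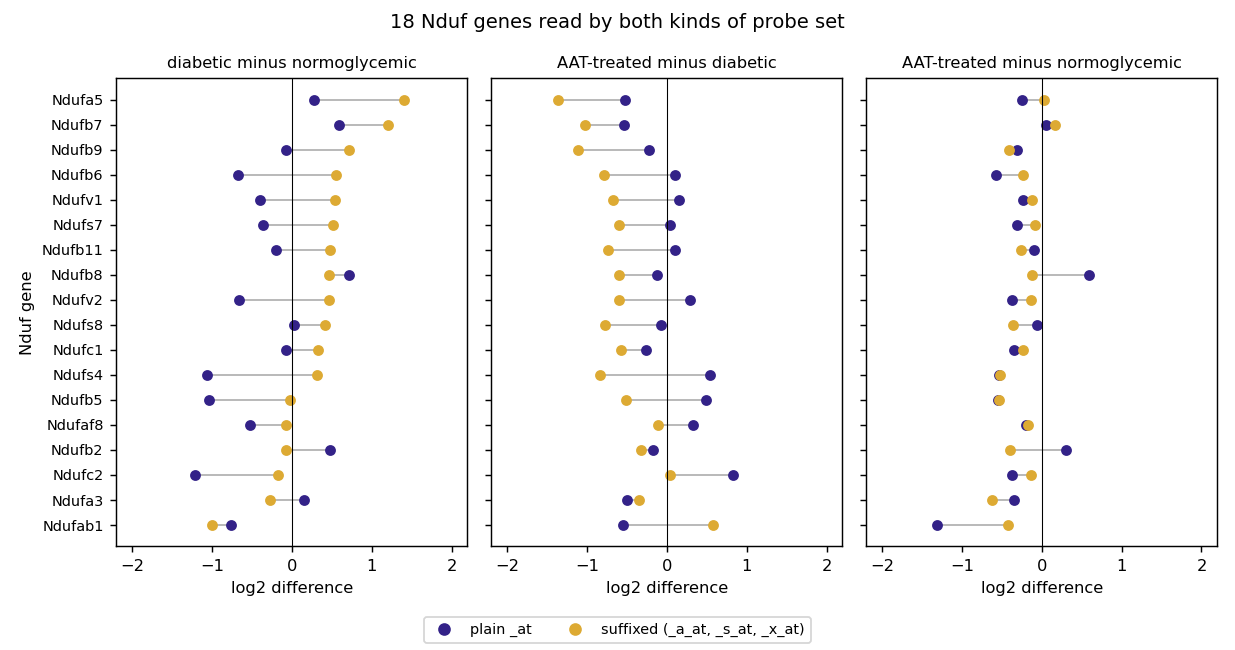
Log2 difference of the brightest plain and the brightest suffixed probe set of 18 Nduf genes in the 3 comparisons, 1 row per gene with a grey line joining its values. The kinds lie on opposite sides of 0 for 10, 9 and 3 genes, from the left panel to the right.

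The signal of the suffixed over the plain probe set of the same gene moved with the arrays. The median log2 ratio over the 18 Nduf genes was 1.06 and 1.42 for normoglycemic, 2.2 and 1.8 for diabetic, and 1.73 and 1.15 for AAT-treated arrays. Over the 2488 genes with both kinds it was 0.31 and 0.37, 0.58 and 0.48, and 0.47 and 0.3. In both sets the diabetic arrays had the highest ratios and AAT-treated 1 the next. The beta-actin ratio given above had the same 3 highest arrays. With that ratio as a covariate the median of the 44 genes was −0.71 in diabetic against normoglycemic fat and 0.05 in AAT-treated against diabetic fat. That fit cannot separate the ratio from the group, and the part of RNA quality in these differences was not tested.

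**Figure D4:**
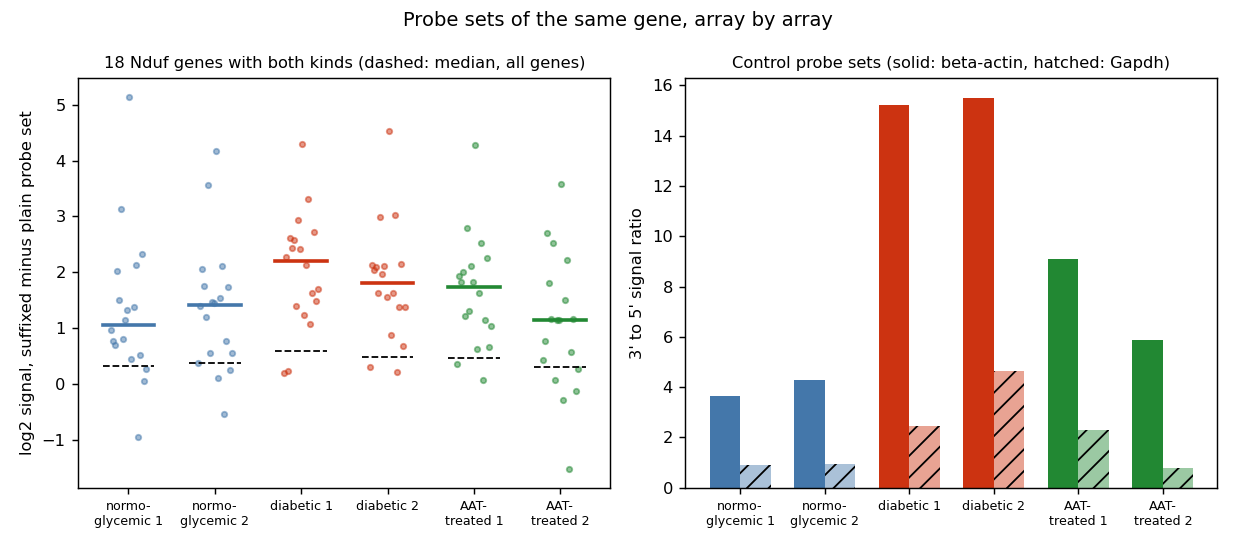
Left, log2 ratio of the suffixed to the plain probe set of 18 Nduf genes on each array (points), with their median (coloured bar, 1.06 to 2.2) and the median of 2488 genes (dashed, 0.3 to 0.58); right, 3′ over 5′ quotient of the controls beta-actin and Gapdh. The diabetic arrays are highest in the left panel and in the beta-actin bars.

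Other genes of complex I and of the entry of electrons to the chain were read from lists. Of 11 kept genes that assemble complex I but lack the Nduf name, 9 were lower in diabetic than in normoglycemic fat (median −0.42) and 10 were lower in AAT-treated than in normoglycemic fat (median −0.41), and 0 passed the adjusted threshold by limma in any comparison. Tmem70, a membrane protein needed for ATP synthase and complex I assembly, had normoglycemic signals of 1879 and 1642, diabetic signals of 727 and 836, and AAT-treated signals of 828 and 1525 (diabetic minus normoglycemic −1.1 ± 0.36, adjusted p = 0.482). Nubpl, which delivers iron-sulfur clusters to complex I, differed by −0.95 ± 0.36 (adjusted p = 0.491). Of the Ndufaf genes 5 of 8 and 8 of 8 were lower in the same comparisons, where 53.6% and 52% of all genes were lower.

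The mitochondrially encoded core subunit ND5, the 1 such gene analysed here, had normoglycemic signals of 251734 and 119896, diabetic signals of 61432 and 39558, and AAT-treated signals of 43734 and 211029. The diabetic arrays lay below the normoglycemic ones (−1.82 ± 0.78, adjusted p = 0.5 by limma), and the AAT-treated arrays spanned nearly the whole range. Its 2 brightest arrays were normoglycemic 1 and AAT-treated 2, those set apart by the principal component analysis.

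Complex II, which feeds electrons from succinate, had 7 of 8 genes lower in diabetic fat (median −0.48) and 7 of 8 lower in AAT-treated than in normoglycemic fat (median −0.27). The assembly factor Sdhaf3 had normoglycemic signals of 745 and 769, diabetic signals of 364 and 366, and AAT-treated signals of 343 and 326, with close replicates in every group (−0.92 ± 0.32 and −1.02 ± 0.32 against normoglycemic fat, adjusted p = 0.482 and 0.89). Of 8 genes listed as other electron donors 4 were higher and 4 lower in diabetic than in normoglycemic fat (median 0.01). The higher ones were Gpd2, Dhodh, Prodh and Nnt. Nnt is a transhydrogenase between NADH and NADP and gives no electrons to quinone. It had normoglycemic signals of 2330 and 4296 and diabetic signals of 7194 and 5939. The lower ones were Etfa, Etfb and Etfdh, which carry electrons from fatty acid oxidation to quinone, and Sqor. The differences were −1.72 ± 0.36 for Etfa, −1.21 ± 0.34 for Etfdh and −1.24 ± 0.31 for Sqor (adjusted p = 0.458, 0.461 and 0.458 by limma). For Etfb, normoglycemic signals of 10531 and 8732 overlapped diabetic signals of 8833 and 7409. Etfa had normoglycemic signals of 8919 and 7124, diabetic signals of 2489 and 2251, and AAT-treated signals of 3783 and 6352. The groups of Etfa did not overlap with each other.

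Of 14 regulators of mitochondrial gene expression, 6 were higher and 8 lower in diabetic fat (median −0.19). Ppargc1b, a coactivator of respiratory genes, had normoglycemic signals of 769 and 593, diabetic signals of 3188 and 1343, and AAT-treated signals of 927 and 111, and both diabetic arrays were the highest (AAT-treated minus diabetic −2.32 ± 0.73, adjusted p = 0.962). Esrra, the estrogen-related receptor that works with it, had 561 and 519, 810 and 1105, and 596 and 546 in the same order of groups. Its diabetic arrays were also the highest (diabetic minus normoglycemic 0.73 ± 0.32, adjusted p = 0.504). Tfb2m, with the smallest unadjusted p of the list in that comparison, went the other way. It had 2517 and 1759, 1207 and 1057, and 1249 and 1217 in the same order of groups, highest in normoglycemic fat (−0.86 ± 0.32, adjusted p = 0.491 by limma). Genes of mitochondrial mass such as porins, import receptors and chaperones were evenly divided in diabetic fat, with 5 of 10 higher, and 6 of 10 were lower in AAT-treated than in normoglycemic fat.

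The tissue label was checked against markers. Of 10 adipocyte markers 8 were measured, and all 8 were kept, with a summed signal of 293356 to 480104 in normoglycemic, 189617 to 315111 in diabetic and 194600 to 307563 in AAT-treated fat. In AAT-treated against normoglycemic fat 8 of 8 adipocyte markers were lower, with a median of −0.48, in the same direction as the complex I genes. In bulk tissue fewer cells of a type and less RNA per cell cannot be told apart, and the part of adipocyte content in the result was not tested. Smooth muscle markers were higher in AAT-treated fat, 8 of 8, with summed signals of 57013 and 86937 against 7193 and 29663 in normoglycemic fat and 14700 and 10004 in diabetic fat. Macrophage markers were higher in diabetic than in normoglycemic fat for 9 of 10, with summed signals of 7779 to 7893 in normoglycemic, 16905 to 31872 in diabetic and 11058 to 18652 in AAT-treated fat. Mesothelial markers were higher in AAT-treated than in normoglycemic fat for 6 of 6 (median 0.8), with summed signals of 2961 to 4421 in normoglycemic, 4359 to 4794 in diabetic and 6665 to 8590 in AAT-treated fat. Of 4 kept B cell markers 3 were higher in that comparison (median 2.49), namely Ighm, Jchain and Mzb1. The other, Ms4a1, was lower, with normoglycemic signals of 535 and 346 and AAT-treated signals of 214 and 535, and Cd79a and Cd79b lay under the filter. Over all 6 measured, summed signals were 30289 and 11103 on the AAT-treated arrays against 1380 to 5668 on the other arrays. Ighm alone read 19419 and 3925 on the AAT-treated arrays. Erythroid and platelet markers were lower in diabetic than in normoglycemic fat for 5 of 5 kept (median −2.65). Summed over all 6 measured, diabetic signals were 2648 and 3329 against 9695 and 12230 in normoglycemic fat. Endothelial markers summed to 8893 or more on 4 arrays, at most 19764, but to only 2306 for normoglycemic 1 and 3917 for AAT-treated 2. The part of these cell types in the results was not tested.

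Brown fat and skeletal muscle, tissues rich in mitochondria, were looked for by their markers. The brown fat uncoupling protein Ucp1 had signals of 5 to 124 over the 6 arrays and lay under the filter, and of 10 brown fat markers 6 were kept. The skeletal muscle myosin Myh4 had signals of 14 to 79, and of 10 skeletal muscle markers 3 were kept. Summed over all 10, including those under the filter, normoglycemic signals were 2680 and 2911, diabetic 1460 and 1901, and AAT-treated 3403 and 1097. The mean log2 level of the 3 kept markers was 9.47 and 9.28, 8.57 and 8.88, and 8.55 and 8.45 in the same order of groups. None of the brown fat or skeletal muscle markers had a signal of 0. MAS5 signals are positive by construction, so this does not show that the transcripts were present.

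Of the remaining members, Ndufa4 had normoglycemic signals of 5616 and 6969, which lay inside the range of the diabetic signals, 4427 and 7675, and AAT-treated signals of 5079 and 4015, below both normoglycemic arrays. Ndufa4l2, its paralog, read 387 and 160, 72 and 281, and 138 and 189 in the order normoglycemic, diabetic and AAT-treated, with overlap between all groups. Ndufc2, of the proximal membrane arm, lay between 11973 and 15391 on all arrays of its brightest probe set, with overlap throughout. Its other kept probe sets did not overlap between diabetic and normoglycemic fat: the plain one, with normoglycemic signals of 3022 and 3475, diabetic signals of 1306 and 1407, and AAT-treated signals of 2424 and 2525, differed by −1.21, and the other _s_at one by −0.82. Ndufb1, Ndufb4 and Ndufaf6 had mean signals of 178, 172 and 184, just above the filter of 164, and all their differences were within 1 SE of 0. Ndufb4 was read here from a dim probe set, since its brighter ones carry the symbols of several genes. Probe sets with several symbols numbered 10 of the 98 that list an Nduf gene and were left out, so Ndufa11 and Ndufs6 were not analysed here.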

How the data were processed

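RNA of fat tissue was extracted with Trizol and labelled by the Affymetrix single-cycle protocol, per the labels. The deposited values are MAS5 signals, intensities on a linear scale for 45101 probe sets on 6 arrays, the product named in the submitters' processing notes without a version. MAS5 corrects background and mismatch signal array by array and scales each array, and the median signal ran from 175.7 to 272.2. The number of arrays limits the precision.

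Probe sets were named from the platform annotation, and those with several symbols (932), no symbol (9160) or control sequences (64) were left out. Values were taken as log2(signal + 74), the 25th percentile of the deposited values, which understates differences of weak genes. Probe sets with a mean signal above 164, the 40th percentile, were kept. Group means were fitted with limma 3.58.1 in R 4.3.3 (eBayes with trend, 3 residual and 5.36 prior degrees of freedom, two-sided, Benjamini-Hochberg adjustment within each comparison over 13043 genes). On simulated data with 13043 genes, for diabetic minus normoglycemic, the share of true changes called was 3.28% at 2-fold, 61.2% at 4-fold and 96.7% at 8-fold. The members and all gene lists were chosen with earlier results of these data known. Differences are given by name for Ndufa5, Ndufa9 and the 6 Nduf genes with the smallest p in each comparison, and for at most 3 genes of another list. Differences on plain _at probe sets are also given for core subunits and distal arm genes. Other genes named are given by signal, or were chosen after their values were seen. Alternatives covered the pseudocount, the filter, the scaling, covariates, the replicate number, the choice of probe set, the variance model and each array left out.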

Additional observations from a re-analysis of the deposited data

How the results depend on the processing

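No alternative changed the count of 0 genes past the threshold except the absence of a filter, with 1 gene in AAT-treated against diabetic fat, and the fits without 1 array, with 0 to 3 genes in AAT-treated against normoglycemic fat (3 without normoglycemic 2). Where an array was left out, its lone replicate was assumed to vary like the other groups. The number of members lower in AAT-treated than in normoglycemic fat ran from 33 to 40 without 1 array and from 30 (of 34) to 42 over the other alternatives.

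The median of the Nduf genes ran from −0.2 to 0.1 in diabetic against normoglycemic fat and from −0.45 to −0.19 in AAT-treated against diabetic fat when 1 array was left out; the extremes came from leaving out diabetic 2 or diabetic 1 in the former, and the upper end from leaving out diabetic 2 in the latter. With the beta-actin ratio as a covariate it was −0.71, 0.05 and, for AAT-treated against normoglycemic fat, −0.62. In that fit the diabetic minus normoglycemic difference was −2.0 for Ndufa5, 1.04 for Ndufs4, −2.16 for Ndufb7, 0.31 for Ndufab1, 1.29 for Ndufaf1 and 0.23 for Ndufa9 (SE 1.18 to 1.57, unadjusted p 0.146 to 0.867 by limma), whereas Ndufa8 kept its sign at −2.22. The AAT-treated minus diabetic difference was 0.49 for Ndufa5, 0.62 for Ndufb9, 0.16 for Ndufs8, 0.8 for Ndufb7, 0.06 for Ndufv3, 0.07 for Ndufb6 and −0.38 for Ndufa9, and the AAT-treated minus normoglycemic difference 0.42 for Ndufs4 and −1.51 for Ndufa5. The beta-actin ratio did not overlap between the groups, so that fit cannot separate the ratio from the group. The cause of these reversals was not tested. With plain _at probe sets alone, an alternative added after the data were seen, 34 members remained; 12 were higher in diabetic than in normoglycemic fat (median −0.33) and 16 lower in AAT-treated than in diabetic fat (median 0.02, Ndufb6 at 0.1). The AAT-treated minus normoglycemic difference of Ndufa5, near 0, was −0.25 there, −0.03 with quantile normalization, −0.27 with the hybridisation controls as a covariate, −0.11 with all probe sets averaged and −0.57 to 0.64 without 1 array. That of Ndufa9 between AAT-treated and diabetic fat was −0.03 to 0.34 without 1 array. With the replicate number as a block 0 genes passed in each comparison and 40 of 44 members were again lower in AAT-treated than in normoglycemic fat; the labels pair no arrays, and the deviations of same-numbered arrays correlated at 0.075, −0.505 and −0.116. Over all named differences the smallest adjusted p of any alternative was 0.298.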
